A study of Mus musculus with 4 samples.

Results

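Growth hormone reaches the liver in pulses and binds its receptor on hepatocytes, where the receptor-bound kinase JAK2 phosphorylates the transcription factors STAT5A and STAT5B. STAT5 then enters the nucleus and induces Igf1, the hormone that carries much of the growth signal, together with genes that damp the pathway. In mice the pulse pattern differs between the sexes, and the male pattern, read mainly through STAT5B, keeps a set of liver genes high in males and another set low. The genes described here are 10 of this axis: the receptor Ghr, the kinase Jak2, the factors Stat5a and Stat5b, the targets Igf1, Igfals, Socs2 and Onecut1, and the male-biased genes Hsd3b5 and Elovl3.

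The members were named by their role in growth hormone signaling, except that Hsd3b5 and Elovl3 are included because earlier results of these data had them at a lower level in the knockout. The difference of that pair between the genotypes is therefore a description and carries no test, and the question is whether the other 8 genes differ in step with it. The 10 genes are part of 7935 that could be compared between the genotypes. They were found by position, as assembled loci that overlap their exons on the mouse build GRCm38. In all, 66 loci touched the exons of a member, 63 of them were used, and all 10 members had a used locus in each of the 4 libraries and passed the filter on low values.

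Liver RNA came from 2 libraries of male mice homozygous for a disruption of the hemojuvelin gene (HJV, here called knockout or KO) and 2 of wild type (WT) males. The strain background was C57/BL6 throughout, and the labels give no tissue restriction for the disruption. The WT mice were bought from a supplier and the knockout mice came from another laboratory's line, so colony and genotype cannot be told apart. Both genotypes ate the low iron diet AIN-93G (iron at 2.5 mg/kg) for 50 days, starting when they were 5 weeks old, and livers were taken at 12 weeks, so the controls were iron-restricted as well. Nothing in the labels states that the libraries of a genotype came from separate animals, so p-values measure the spread between these libraries, which may be technical.

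Levels are given as scaled FPKM, the deposited FPKM (read fragments per transcript length and library size) divided by 1 scaling factor per library. Differences are on the scale of log2(scaled FPKM + 1), KO minus WT, which understates those of low genes. Depth, read from the step between the deposited confidence bounds if 1 step is 1 fragment, was 55.0 and 131.6 M fragments in KO replicates 1 and 2 and 87.0 and 51.3 M in WT replicates 1 and 2. The assembly was the most broken up in KO replicate 1, with 2.15 loci per gene, against 1.48 in KO replicate 2 and 1.88 and 1.73 in WT replicates 1 and 2. The disrupted gene, listed as Hfe2 in the annotation, had no used locus in KO replicate 1 and 0.236 scaled FPKM in KO replicate 2, against 9.22 and 29.6 in the WT libraries. The male label holds in all 4 libraries, since Ddx3y, on the Y chromosome, measured 18.5 and 16.6 in KO and 20.2 and 15.0 in WT. Across the 7935 genes, 0 passed an adjusted p of 0.05 by limma, the smallest adjusted p was 0.168, and 462 were higher (5.82%) and 423 lower (5.33%) in KO at an unadjusted p under 0.05. In 22.3% of all genes tested both KO libraries were above both WT libraries, and in 23.8% below.

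The male-biased pair, which set the question, differed in shape. Hsd3b5 (chromosome 3, 98618634 to 98630252, minus strand), a 3-ketosteroid reductase made in adult male mouse liver, measured 50.9 and 37.3 scaled FPKM in KO replicates 1 and 2, against 174 and 179 in WT replicates 1 and 2. Both KO libraries lay far below both WT libraries, and the WT pair was tight. The means were 44.1 ± 9.61 in KO and 176 ± 3.17 in WT (SD, n = 2 each), a log2 difference of -1.99, and leaving out any 1 library kept it between -2.21 and -1.77. In whole liver, fewer cells of a type and less RNA per cell cannot be told apart. Each library assembled Hsd3b5 as 1 locus over 95.4% to 100% of its transcript. Near-identical members of its family lie beside it, and reads that could be shared among them make the level of Hsd3b5 uncertain to that extent. The gene lies 2.09 Mb from the disrupted gene on chromosome 3.

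Elovl3 (chromosome 19, 46131897 to 46135694, plus strand), an elongase of very long chain fatty acids, measured 45.9 and 52.6 scaled FPKM in KO, against 162 and 85.5 in WT. Here the KO libraries were close together and the spread lay in WT, where replicate 1 was 1.89 times replicate 2. The groups did not overlap, with means of 49.2 ± 4.80 in KO and 124 ± 53.9 in WT (SD, n = 2 each) and a log2 difference of -1.24. Its size depended on the WT library used, at -0.79 without WT replicate 1 and -1.70 without WT replicate 2. It too was assembled as 1 locus per library, over 83.5% to 87.3% of the transcript.

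The genes whose 4 values were most like those of Hsd3b5, by Euclidean distance between log2 values centred on each gene's mean over the 4 libraries, were C6, Elovl6, the transferrin receptor gene Tfrc, Krt23 and Gm4951. C6, a complement component that is itself male-biased, was the closest at a distance of 0.14, with 33.3 and 24.0 scaled FPKM in KO and 102 and 118 in WT. Those most like Elovl3 were Pnpla7, Cd36, Serpina7, AI987944 and Dnajc1, from 0.22 for Pnpla7 to 0.36 for Dnajc1. Of these, Cd36 is on the list of female-biased genes described below. Hsd3b5 and Elovl3 lay 1.10 apart. Of the other members, Ghr was the nearest to both, at 1.62 from Hsd3b5 and 1.19 from Elovl3, and Socs2 the farthest, at 3.97 and 3.29. Distances over 4 libraries are a description of likeness in these libraries.

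**Figure D1:**
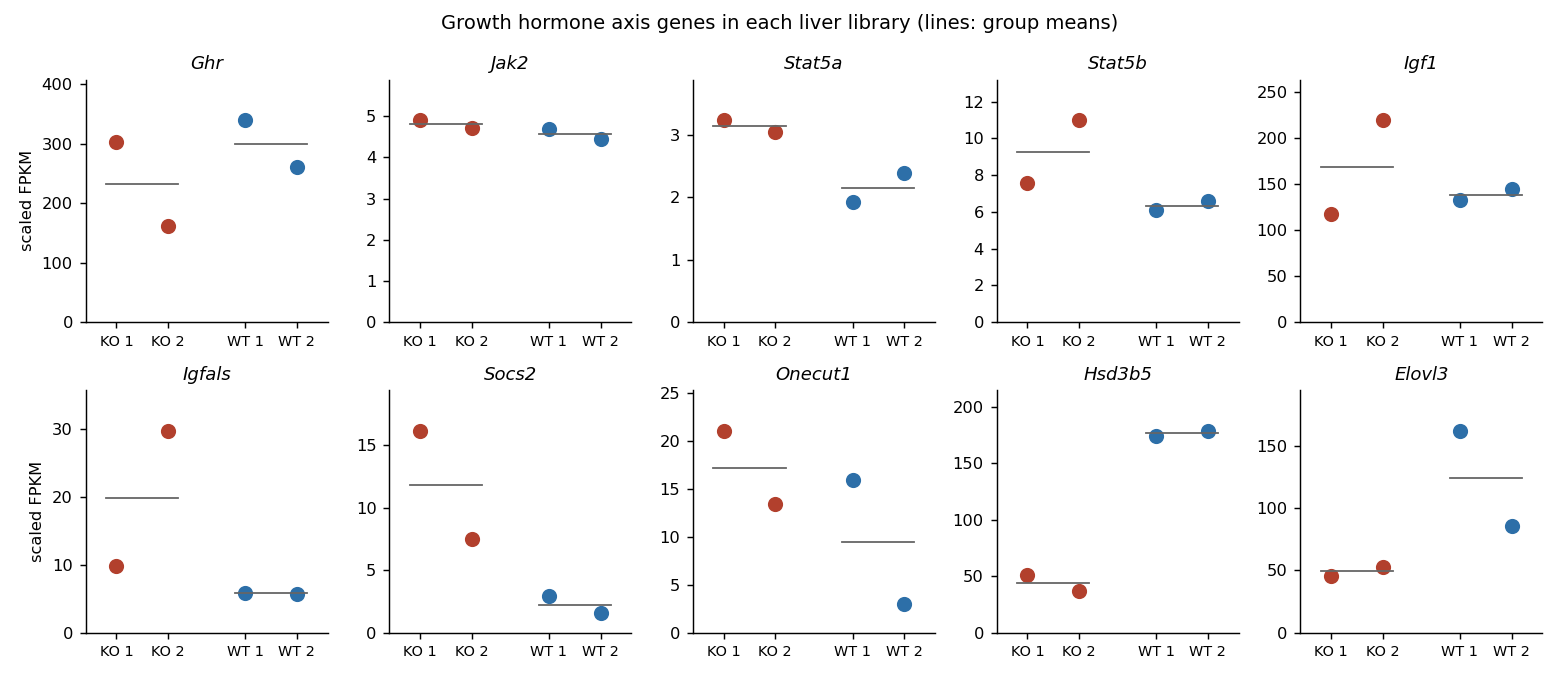
Scaled FPKM (vertical axis, linear, from 0) of the 10 growth hormone axis genes in KO replicates 1 and 2 (red) and WT replicates 1 and 2 (blue), with lines at the group means. Hsd3b5 and Elovl3 lie below WT in both KO libraries, Socs2 and Igfals lie above it in both, and the KO libraries stand on either side of WT for Igf1.

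At the top of the pathway, neither the receptor nor its kinase differed beyond the spread of the libraries. Ghr (chromosome 15, 3317760 to 3583492, minus strand), among the most abundant members, measured 302 and 161 scaled FPKM in KO, against 340 and 261 in WT. KO replicate 1 lay between the WT libraries and KO replicate 2 was lowest, so the groups overlapped. The log2 difference was -0.43 with an SE of 0.36 and a 95% interval of -1.37 to 0.51 (limma, adjusted p = 0.654). In KO replicate 2 the receptor was assembled in 2 pieces, a 3′ piece at 93.7 FPKM and the rest at 185 FPKM, whereas the other libraries held 1 locus at 362 FPKM in KO replicate 1 and 318 and 239 FPKM in WT. Averaging those pieces lowered the value of KO replicate 2 further, although the higher piece alone was also below the other libraries. The log2 difference was -0.29 with the highest locus of each library and -0.00059 with the loci of the gene summed. Its direction turned with the libraries, at 0.02 without KO replicate 2 and -0.88 without KO replicate 1.

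Jak2 (chromosome 19, 29251828 to 29313080, plus strand), which docks on the receptor and phosphorylates STAT5, measured 4.90 and 4.70 scaled FPKM in KO, against 4.69 and 4.45 in WT. The groups just failed to overlap, by less than 0.01 scaled FPKM, and all 4 values lay close together. Jak2 differed by 0.06 on the log2 scale, with an SE of 0.18 and a 95% interval of -0.42 to 0.54 (limma, adjusted p = 0.914). It was assembled in 2 to 4 loci per library, and its direction turned to -0.02 under quantile normalization. It became 1.15 when loci far above their own bounds were kept, through 1 such locus of 159 bases in KO replicate 1.

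Both STAT5 genes, neighbors on chromosome 11 with 8.63 kb between them, stood slightly higher in both KO libraries. Stat5b (100780731 to 100850724, minus strand), the form that carries most of the growth hormone signal in liver, measured 7.57 and 11.0 scaled FPKM in KO, against 6.08 and 6.61 in WT. The WT values were close together and the KO values more spread, both above WT. The log2 difference was 0.47 with an SE of 0.24 and a 95% interval of -0.15 to 1.08 (limma, adjusted p = 0.518), and it was 0.71 without KO replicate 1 and 0.22 without KO replicate 2. Stat5a (100859351 to 100885169, plus strand) measured 3.24 and 3.05 in KO, against 1.93 and 2.39 in WT, so it was the less abundant of the pair in every library. Its log2 difference was 0.40 with an SE of 0.20 and a 95% interval of -0.12 to 0.91 (limma, adjusted p = 0.517), and it was 0.13 after a correction for GC content. Neither gene was lower in a KO library than in any WT library.

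Stat5b shows how the assembly enters the values. In KO replicate 2 it was 1 locus of 10.5 FPKM over the whole transcript. In KO replicate 1 its 3′ piece had 11.8 FPKM and the 3 shorter pieces upstream had 4.48, 2.26 and 8.18 FPKM. In the WT libraries the 3′ pieces had 6.70 and 7.30 FPKM and the 5′ pieces 2.14 and 2.34 FPKM. Taking the highest locus of each library, which is the 3′ piece where the gene was divided, gave a log2 difference of 0.42.

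Igf1 (chromosome 10, 87858265 to 87937042, plus strand), the main circulating growth factor made under STAT5, measured 118 and 220 scaled FPKM in KO, against 132 and 145 in WT. KO replicate 1 lay below both WT libraries and KO replicate 2 above both. Its log2 difference was 0.22 with an SE of 0.34 and a 95% interval of -0.66 to 1.10 (limma, adjusted p = 0.819). Its sign followed the KO library kept, at 0.66 without KO replicate 1 and -0.23 without KO replicate 2. Igf1 was 1 locus in each library and covered at least 1 of its coding transcripts in full. The loci ended at 87930703 or 87930814, short of the annotated 3′ end of the gene.

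Igfals (chromosome 17, 24865997 to 24882010, plus strand) encodes the acid-labile subunit, which holds IGF1 and its binding protein in a large circulating complex and is induced by growth hormone through STAT5. It measured 9.84 and 29.8 scaled FPKM in KO, against 5.91 and 5.75 in WT. Both KO libraries exceeded both WT libraries, and KO replicate 2 was 3.03 times KO replicate 1. The log2 difference was 1.42 with an SE of 0.51 and a 95% interval of 0.09 to 2.75 (limma, unadjusted p = 0.0407, adjusted p = 0.441). It was above 0 whichever library was left out, from 0.67 without KO replicate 2 to 2.17 without KO replicate 1. Without KO replicate 1 it passed the test over all genes (limma, adjusted p = 0.0206), with KO replicate 2 assumed to vary like the WT pair. Over the alternatives the adjusted p ranged from 0.0206 to 0.997, and the unadjusted p was above 0.05 in 6 of 19, among them 0.185 with the loci of the gene summed and 0.0879 with its highest locus.

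Igfals has the highest GC content of the 10 members, 58.9% of its longest coding transcript against a median of 49.4% for the genes tested, and GC content moved with the libraries. Across the 7935 genes the log2 ratio of KO replicate 2 to KO replicate 1 had a Spearman correlation of 0.48 with GC content, the ratio of WT replicate 2 to WT replicate 1 one of 0.26, and the difference between the genotypes one of 0.38. After a lowess correction for GC content the log2 difference of Igfals was 0.94 (limma, unadjusted p = 0.0259). Among the other members GC content ran from 38.0% for Igf1 to 55.8% for Stat5a.

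The upstream sequence of Igfals is shown because it alone among the members with a promoter entry holds the letters TTCNNNGAA, the core that STAT5 dimers bind. The sequences come from RefSeq (GRCm38.p6), which lists 13 start windows for 8 of the members, each from 250 bases before to 50 bases after a start. Socs2 and Elovl3 have no entry. The motif, which reads the same on both strands, occurs in 2 of those 13 windows, both of Igfals, and in 8.3% of all 32851 windows. The first stretch is chr17:24877594-24877843 and the second chr17:24877981-24878230, both on the plus strand and each ending 1 base before a listed start, with the motif in capitals.

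Igfals, first start: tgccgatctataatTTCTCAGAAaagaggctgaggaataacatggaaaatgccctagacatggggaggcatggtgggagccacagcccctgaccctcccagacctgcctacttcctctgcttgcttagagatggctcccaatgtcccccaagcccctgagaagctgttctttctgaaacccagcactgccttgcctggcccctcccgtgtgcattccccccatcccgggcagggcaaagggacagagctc

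Igfals, second start: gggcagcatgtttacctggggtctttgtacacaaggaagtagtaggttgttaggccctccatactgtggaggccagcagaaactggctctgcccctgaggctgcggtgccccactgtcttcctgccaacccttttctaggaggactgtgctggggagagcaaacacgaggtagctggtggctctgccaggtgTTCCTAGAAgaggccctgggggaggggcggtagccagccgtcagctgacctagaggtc

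Counted from the base of each start, the match begins at -236 in the first stretch and at -58 in the second. The narrower letters TTCTNNGAA, which read differently on the other strand, were searched on the strand of the gene only. There the first site matched and the second did not, against 3.13% of all windows. Read on the other strand, the second site matches these letters too, so they do not set the sites apart. The assembled Igfals locus began at 24877835 in KO replicate 2, next to the first of these starts, and at 24878724 in KO replicate 1, while in WT a short piece began at 24878110 or 24878176 and the main locus at 24878744 or 24878763. The single Hsd3b5 window held no match, and it lies upstream of all 4 assembled Hsd3b5 loci, and nothing is read from it.

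Socs2 (chromosome 10, 95385362 to 95417180, minus strand), which STAT5 induces and whose product attenuates growth hormone receptor signaling, showed the largest difference of the 8 genes chosen by role. It measured 16.1 and 7.51 scaled FPKM in KO, against 2.92 and 1.56 in WT. Both KO libraries lay above both WT libraries, with KO replicate 1 at 2.15 times KO replicate 2 and WT replicate 1 at 1.88 times WT replicate 2. The means were 11.8 ± 6.10 in KO and 2.24 ± 0.968 in WT (SD, n = 2 each), a ratio of 5.28. The log2 difference was 1.93 with an SE of 0.42 and a 95% interval of 0.84 to 3.02 (limma, unadjusted p = 0.00628, adjusted p = 0.403), so it did not pass over all genes.

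The difference in Socs2 kept its direction under every alternative run, from 1.43 without KO replicate 1 to 2.44 without KO replicate 2, and was 2.01 after the GC correction. Its adjusted p ranged from 0.0737 to 0.997 over those alternatives. The gene was thinly assembled in WT replicate 2, where 2 loci of 0.813 and 2.61 FPKM spanned 51.8% of the transcript, near the 50% required. In KO replicate 2 the main locus had 9.78 FPKM, and 3 small loci under 0.5 FPKM over distant exons pulled the weighted mean down. Taking the highest locus of each library gave a log2 difference of 1.84.

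Onecut1 (chromosome 9, 74861921 to 74891781, plus strand), the hepatocyte factor HNF6, whose gene growth hormone induces through STAT5, measured 21.1 and 13.4 scaled FPKM in KO, against 16.0 and 2.97 in WT. WT replicate 2 stood apart from the other 3 libraries, and the groups overlapped. Its log2 difference was 1.12 with an SE of 0.72 and a 95% interval of -0.75 to 2.99 (limma, adjusted p = 0.578). It rested on WT replicate 2, since it was 0.07 without it and 2.16 without WT replicate 1. In WT replicate 2 a single locus over 61.6% of the transcript was assembled, against 90.1% in WT replicate 1.

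Taken as a set, the 8 genes chosen by role included 5 that were higher in both KO libraries (Jak2, Stat5a, Stat5b, Igfals and Socs2), 0 that were lower in both and 3 that overlapped (Ghr, Igf1 and Onecut1). Among all genes tested, 22.3% were higher in both KO libraries and 23.8% lower in both. At an unadjusted p under 0.05, 2 of the 8 were higher (Socs2 and Igfals) and 0 lower, against 5.82% higher and 5.33% lower among all genes, and 0 of the 8 passed the adjusted threshold, as was the case for all genes. The pair Hsd3b5 and Elovl3, included for its lower level in KO, was lower in both KO libraries. None of the receptor, kinase, STAT5 and target genes chosen by role was, against 23.8% of all genes. No difference between these genes was tested.

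**Figure D2:**
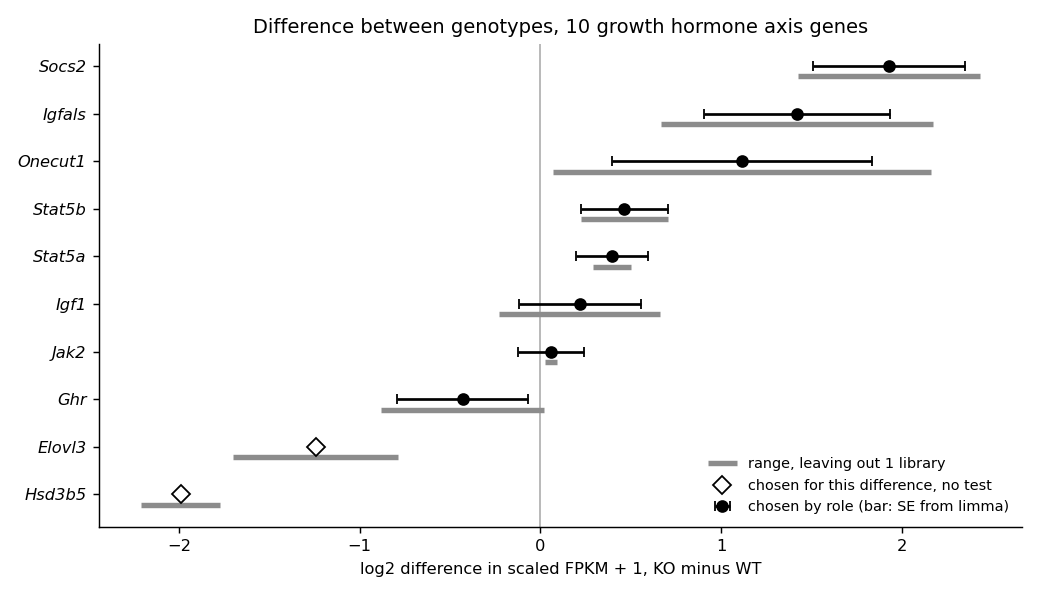
Log2 difference in scaled FPKM + 1, KO minus WT (horizontal axis), for the 10 genes. Filled circles with SE bars are the 8 genes chosen by role, open diamonds the pair chosen for its difference, and grey bars the range when 1 library is left out. The grey bars of Socs2, Igfals, Onecut1, Stat5b, Stat5a and Jak2 are above 0, while the grey bars of Ghr and Igf1 cross it. The SE bar of Jak2 crosses 0.

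The wider pathway was described with lists of JAK, STAT and feedback genes, of the IGF system, of sex-biased liver genes and of hepatocyte transcription factors that growth hormone modulates. Of 22 tested JAK, STAT and feedback genes, 2 were higher at an unadjusted p under 0.05 and 0 lower, against 5.82% higher and 5.33% lower among all genes, with a median log2 difference of 0.07 against 0.02 for all genes. Prlr, the prolactin receptor, which also signals through JAK2 and STAT5, measured 30.4 and 44.2 scaled FPKM in KO, against 23.4 and 19.1 in WT, a log2 difference of 0.77 (SE 0.26, limma, adjusted p = 0.436). Pias3, an inhibitor of STAT3, measured 3.51 and 3.32 in KO, against 1.67 and 2.12 in WT, a log2 difference of 0.61 (SE 0.20, limma, adjusted p = 0.431). Both genes were higher in both KO libraries, and neither passed over all genes. After the GC correction Pias3 was at 0.42 (limma, unadjusted p = 0.0996), and its unadjusted p was 0.0562 under quantile normalization and 0.0547 with the replicate block. Prlr was 0.50 without KO replicate 2 (limma, unadjusted p = 0.0638).

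Cish, which STAT5 induces early and strongly and whose product blocks STAT5 docking, could not be tested because less than 50% of its transcript was assembled in 2 libraries. It measured 8.27 and 11.5 scaled FPKM in KO, against 2.58 and 1.35 in WT. Both KO libraries lay above both WT libraries, as for Socs2, and the share of the transcript spanned was 48.0% and 100% in KO and 54.8% and 18.2% in WT. Untested genes named here and below were chosen after their values were seen. Socs3, the feedback inhibitor of interleukin-6 signaling, was not tested for the same reason and measured 2.32 and 3.40 in KO, against 1.69 and 1.99 in WT.

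The RefSeq window of Cish holds 2 separate copies of the motif just inside the transcript, shown here with 10 flanking bases on each side. They lie at chr9:107296659-107296667, beginning at the listed start, and at chr9:107296670-107296678, 11 bases further on, on the plus strand of GRCm38.p6. The motif is in capitals. Cish was the only gene outside the members whose window was looked at singly, and it was chosen after its values were seen. The motif occurs in 8.3% of all windows, and whether it bears on the level of Cish was not tested.

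Cish, first copy: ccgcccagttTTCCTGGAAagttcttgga

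Cish, second copy: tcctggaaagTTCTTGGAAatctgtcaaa

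In the IGF system, 2 of 6 tested genes were higher at an unadjusted p under 0.05 and 0 lower, against 5.82% and 5.33% of all genes. Their median log2 difference was 0.52, and it was 0.27 without WT replicate 1, 0.73 without WT replicate 2 and 0.21 after the GC correction. Igfbp3, the binding protein that forms the circulating complex with IGF1 and the acid-labile subunit and is itself raised by growth hormone, measured 20.9 and 15.7 scaled FPKM in KO, against 10.9 and 7.83 in WT. Its log2 difference was 0.90 with an SE of 0.25 (limma, adjusted p = 0.421), and the groups did not overlap. Igfbp2, a binding protein that fasting raises, measured 190 and 456 in KO, against 76.2 and 11.1 in WT. All 4 values were far apart, and the log2 difference was 3.28 with an SE of 0.96 (limma, adjusted p = 0.421). It was 1.94 without WT replicate 2 and 4.62 without WT replicate 1. Igfbp1, which insulin represses in hepatocytes, lay the other way, at 9.10 and 4.49 in KO against 14.7 and 48.6 in WT, and was not tested because 31.8% of its transcript was assembled in WT replicate 1.

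**Figure D3:**
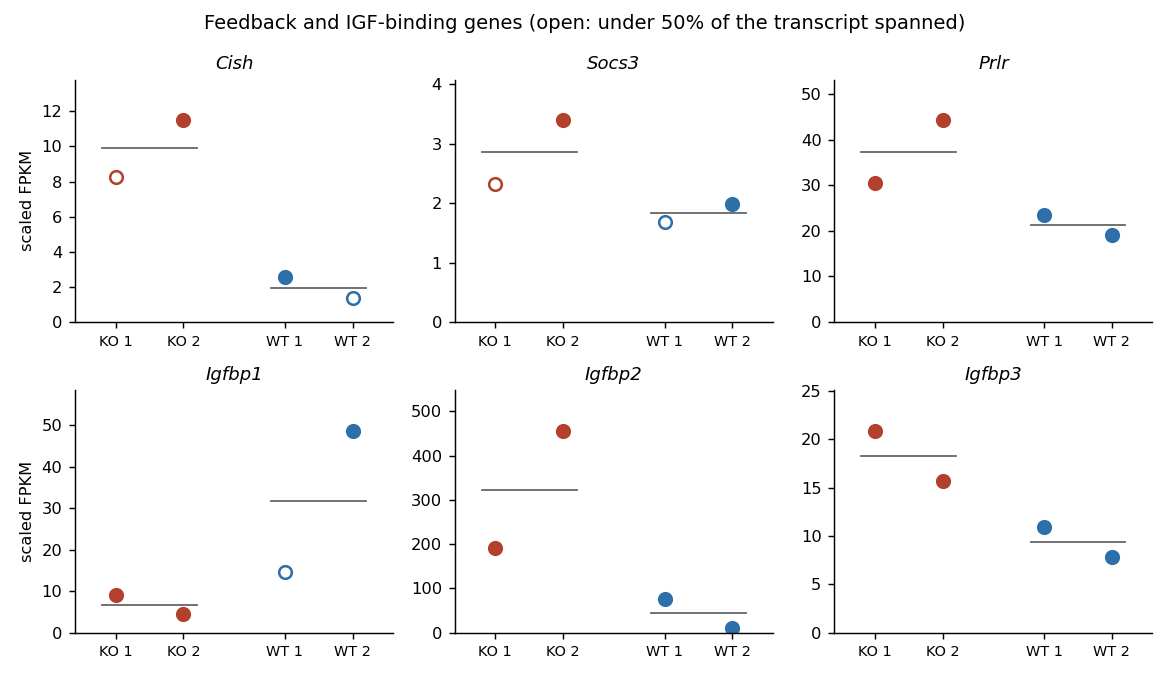
Scaled FPKM (vertical axis, linear, from 0) of 3 feedback or receptor genes and 3 IGF-binding protein genes in KO (red) and WT (blue) libraries, with lines at the group means and open circles where under 50% of the transcript was spanned. Cish, Socs3, Prlr, Igfbp2 and Igfbp3 are higher in both KO libraries and Igfbp1 is lower in both. These genes were picked because their groups did not overlap or after their values were seen, so the separation follows from the choice. Among all genes tested, 22.3% were higher in both KO libraries and 23.8% lower in both.

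The list of genes with higher expression in the liver of male mice lay below 0. Beside Hsd3b5 and Elovl3, 38 were listed and 17 tested, of which 5 were lower at an unadjusted p under 0.05 and 0 higher, against 5.33% lower and 5.82% higher among all genes. Both KO libraries were below both WT libraries for 9 of the 17 and above for 1, against 23.8% and 22.3% of all genes. The median log2 difference was -0.62, and -0.41 on the deposited scale, where the median of all genes was 0.19. It was -0.32 without KO replicate 2 and -0.41 without WT replicate 2. Several of these genes were known to be lower from earlier results of these data, so the list is no independent evidence of its direction. C6 had a log2 difference of -1.92 (SE 0.24, limma, adjusted p = 0.267). C9, a complement component of the membrane attack complex, measured 142 and 169 scaled FPKM in KO, against 280 and 319 in WT, a log2 difference of -0.94 (limma, adjusted p = 0.403). Keg1 had a log2 difference of -0.56 and the cytochrome P450 gene Cyp2u1 one of -0.68, and the remaining gene of the 5 was Nudt7, a peroxisomal coenzyme A hydrolase, at -0.62.

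Other male-biased genes overlapped between the genotypes. Cyp4a12a, the male-specific fatty acid hydroxylase, measured 244 and 207 scaled FPKM in KO, against 223 and 221 in WT. Its near-identical copy Cyp4a12b, not tested, measured 136 and 138 in WT and had no used locus in KO. Reads that could be shared between these copies make the level of Cyp4a12a uncertain. Cyp7b1, an oxysterol hydroxylase, measured 125 and 146 in KO, against 130 and 165 in WT. Bcl6, a repressor of female-biased genes and itself repressed by growth hormone through STAT5, measured 4.21 and 3.66 in KO, against 4.04 and 15.5 in WT, so WT replicate 2 alone stood apart. The genes of this paragraph were chosen after their values were seen.

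Several male-biased genes could not be tested because they had no used locus in a KO library. Moxd1, a monooxygenase, was assembled at 7.56 and 29.7 scaled FPKM in WT, Selenbp2, a selenium-binding protein, at 174 and 160, and neither had a used locus in a KO library. Gstp1, a glutathione S-transferase, measured 418 in KO replicate 1, against 1144 and 1515 in WT, with no used locus in KO replicate 2. Lack of a used locus does not mean lack of the transcript: Alb, the albumin gene and among the most abundant in liver, had none in any library. Most major urinary protein genes on the list likewise had no used locus, and these, Selenbp2 and Gstp1 have near-identical copies among which reads can be shared.

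Female-biased genes differed in both directions. Of 46 listed 17 were tested, of which 2 were higher and 3 lower at an unadjusted p under 0.05, against 5.82% and 5.33% of all genes. The median log2 difference was 0.12 with all libraries and -0.21 without KO replicate 1. Cyp2c39, a cytochrome P450, measured 68.2 and 116 scaled FPKM in KO, against 1.67 and 0.815 in WT, a log2 difference of 5.35 (SE 0.35, limma, adjusted p = 0.168). Cyp7a1, the rate-limiting enzyme of bile acid synthesis, measured 16.3 and 26.4 in KO, against 6.03 and 12.4 in WT. Cyp17a1, a steroid hydroxylase, Cd36, a fatty acid transporter, and Cyp2a5, a coumarin hydroxylase, were lower in both KO libraries, with log2 differences of -1.76, -1.12 and -0.94, although Cd36 turned to 6.48 when loci far above their bounds were kept. Cyp7a1 was 0.70 without WT replicate 1, Cd36 -0.67 without WT replicate 1 and Cyp2a5 -0.55 without KO replicate 2. Of the female-biased genes that could not be tested, Sult1e1, the estrogen sulfotransferase, measured 3.28 and 1.93 in KO and had no used locus in WT, and Cyp2a4, a steroid hydroxylase, measured 149 in KO replicate 1 and had no used locus in the other libraries. Cyp2b9, a cytochrome P450, had no used locus in KO and measured 5.33 and 2.25 in WT. Cyp2a4 and Cyp2b9 have near-identical copies. That of Cyp2a4 is Cyp2a5, so reads that could be shared between them make the level of Cyp2a5 uncertain as well. The level of Cyp2c39 may be uncertain in the same way. Of its relatives on the list, Cyp2c38 had no used locus in KO replicate 2, and Cyp2c40 had a used locus in WT replicate 2 only. Whether reads were shared among these Cyp2c genes was not tested.

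**Figure D4:**
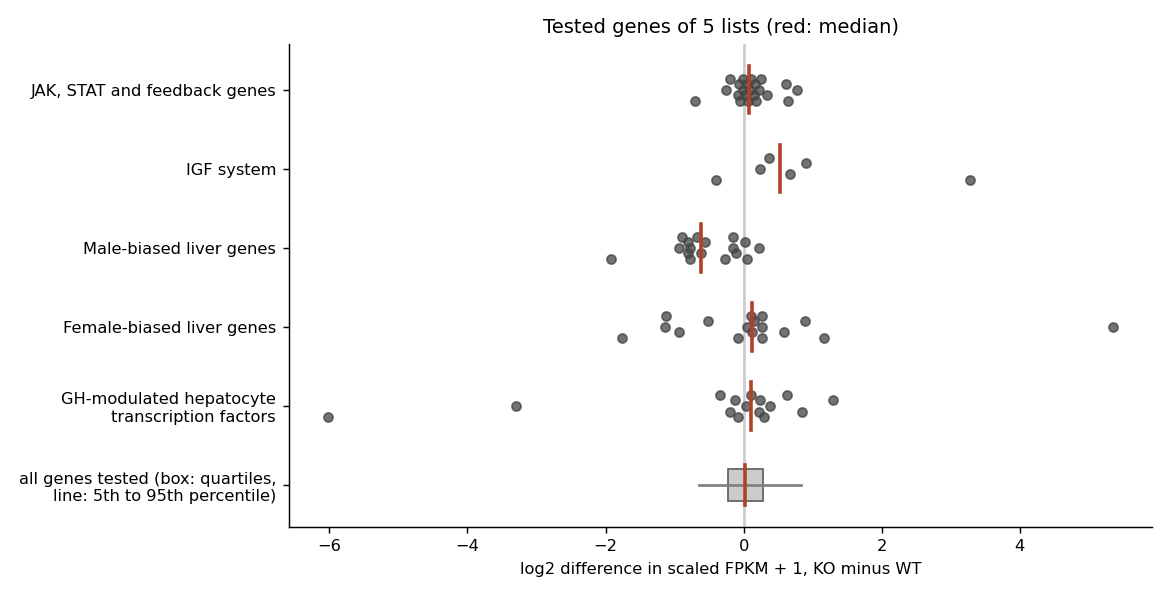
Log2 difference in scaled FPKM + 1, KO minus WT (horizontal axis), of each tested gene (points) in 5 lists, with the list median in red and all 7935 genes tested as a box. The male-biased genes have a median of -0.62 and the IGF system 0.52, and the JAK, STAT and feedback, female-biased and transcription factor lists have medians of 0.07 to 0.12, the sign of the last 2 turning when 1 KO library is left out.

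Among 15 tested hepatocyte transcription factors of the axis, 2 were higher at an unadjusted p under 0.05 and 0 lower, against 5.82% higher and 5.33% lower among all genes. The median log2 difference was 0.11, and its sign turned without KO replicate 2 (-0.050), under quantile normalization (-0.028) and with the loci of a gene summed (-0.10). Foxa2, a pioneer factor of hepatocytes, measured 17.5 and 18.2 scaled FPKM in KO, against 10.6 and 8.45 in WT, a log2 difference of 0.85 (SE 0.20, limma, adjusted p = 0.403). It was 0.50 after the GC correction (limma, unadjusted p = 0.106) and 0.50 with the loci of the gene summed (limma, unadjusted p = 0.204). Rxra, the shared partner of many nuclear receptors, measured 38.0 and 69.0 in KO, against 20.4 and 20.2 in WT, a log2 difference of 1.30 (SE 0.32, limma, adjusted p = 0.403). Hnf4a, which is needed along with STAT5B for the male pattern, measured 61.3 and 138 in KO, against 106 and 94.7 in WT, with KO libraries on either side of WT, and was chosen after its values were seen. The 2 factors farthest to the left in the plot of list genes are Foxo1 and Zbtb20, each from 1 WT value, of 22905 or 480 scaled FPKM beside values under 12 in the other libraries.

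Relatives of the pair were set beside it. In the Hsd3b family, most of whose members are near-identical neighbors on chromosome 3, 2 genes were tested. Hsd3b3 measured 116 and 104 scaled FPKM in KO, against 151 and 185 in WT, a log2 difference of -0.60 (limma, adjusted p = 0.438), and Hsd3b7, a bile acid enzyme outside that cluster, 119 and 178 in KO, against 152 and 218 in WT. Hsd3b2, which was not tested because 32.4% of its transcript was assembled in KO replicate 2, lay the other way from Hsd3b5, at 48.8 and 84.0 in KO against 19.7 and 16.7 in WT. In the Elovl family 3 of 4 tested genes were lower at an unadjusted p under 0.05 and 0 higher, against 5.33% lower and 5.82% higher among all genes. Elovl6, which elongates palmitate, measured 16.2 and 8.91 in KO, against 49.9 and 46.8 in WT, a log2 difference of -1.92 (limma, adjusted p = 0.316). Elovl5 and Elovl2, elongases of polyunsaturated fatty acids, had log2 differences of -0.74 and -0.53. Elovl2, Elovl5 and Elovl6 were lower in both KO libraries, as Elovl3 was and as were 23.8% of all genes, and Elovl5 and Elovl6 were known to be lower from earlier results of these data.

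Markers of the other cells of the liver were set beside these results. The 7 tested Kupffer cell markers had a median log2 difference of -0.22 and summed to 100 and 135 scaled FPKM in KO, against 126 and 153 in WT. The 7 sinusoidal endothelial markers had a median of 0.22 and summed to 59.3 and 76.7 in KO, against 50.8 and 64.4 in WT, and the 5 stellate cell markers a median of 0.47, with 102 and 108 in KO against 98.4 and 80.7 in WT. The 4 tested hepatocyte markers had a median log2 difference of -0.37. Of these, the tyrosine aminotransferase Tat was lower in both KO libraries (log2 difference -0.83, limma adjusted p = 0.403) and the apolipoprotein Apoa1 higher in both (1.01, limma adjusted p = 0.444). Apob (-0.64) and Cps1 (-0.10) overlapped between the genotypes. Apoa1, at 3421 and 5010 scaled FPKM in KO and 2643 and 1601 in WT, is among the defining hepatocyte transcripts found in all 4 libraries. Of the adipocyte markers Fabp4 was tested, at 6.09 and 4.52 in KO against 50.4 and 38.9 in WT, a log2 difference of -2.86 (limma, adjusted p = 0.168), while Adipoq, Plin1, Cfd and Lep had no used locus in any library. The 2 tested lymphocyte and neutrophil markers summed to 3.87 and 4.35 in KO, against 4.72 and 4.59 in WT, the 1 tested cholangiocyte marker, Spp1, measured 23.7 and 13.1 in KO, against 31.6 and 22.4 in WT, and 0 of 6 erythroid markers could be tested. Whether cell composition had a part in the differences of the axis was not tested.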

How the data were processed

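Per the submitters' processing notes, reads were handled with FastQC, TopHat and Cufflinks, and the notes name mm9. The deposited values are FPKM that the authors' Cufflinks runs gave to loci assembled separately in each library, with confidence bounds and no gene names. The coordinates ran to chromosome ends that match GRCm38 and not mm9, so loci were assigned to the 21652 coding genes of GENCODE M21 (GRCm38) by exon overlap.

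A gene with several loci took their average FPKM, each locus counting by its number of exonic bases. Loci above 3 times the midpoint of their bounds were left out, and a gene needed 50% of a coding transcript spanned in every library. Values were scaled by median of ratios (factors of 1.20 and 0.955 in KO replicates 1 and 2, 0.935 and 0.915 in WT), and genes at 1 scaled FPKM or more in at least 2 libraries were tested with limma 3.58.1 in R 4.3.3 on log2(scaled FPKM + 1), with a mean-variance trend and Benjamini-Hochberg adjustment over all 7935 genes. The fit was tested on simulated data. With 2 libraries against 2 an exact permutation test cannot go below p = 0.333, so none was used. FPKM steps read as whole fragments in 98.97% to 99.61% of the values used to estimate depth (tolerance 0.05). No counting interval is given.

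Genes named are the members, list members at an unadjusted p under 0.05 without overlap (at most 4 per direction and list, or the 2 most abundant where fewer than 2 qualify), and the 5 nearest to Hsd3b5 and to Elovl3. Nudt7 and genes said to be chosen after their values were seen fall outside that rule. The members, the gene lists and the tests were chosen with earlier results of these data known. Alternatives were another pseudocount, filter, scaling, limma setting, locus summary, a replicate block, each library left out and, chosen after seeing the data, all loci and a GC correction.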

Additional observations from a re-analysis of the deposited data

How the results depend on the processing

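With each library left out in turn, genes past the adjusted threshold numbered 0 to 360 higher and 1 to 130 lower in KO, and genes at an unadjusted p under 0.05 numbered 123 to 1301 higher and 130 to 794 lower. The highest counts came without KO replicate 1, where the spread comes from the WT pair. In the same fits the members chosen by role numbered 1 to 4 higher, 0 to 1 lower and 0 to 1 past the adjusted threshold (Igfals, without KO replicate 1), and the list genes 5 to 11 higher and 4 to 16 lower, against 8 and 12 with all libraries. Ghr ranged from -0.88 without KO replicate 1 to 0.021 without KO replicate 2, and Igf1 from -0.23 without KO replicate 2 to 0.66 without KO replicate 1. On the deposited scale, where the median of all genes was 0.19, 1 gene was higher past the adjusted threshold, 865 were higher and 140 lower at an unadjusted p, and 5 list genes were lower. With a gene without a locus set to 0, 6 genes were higher and 15 lower past the adjusted threshold, and 1 member was higher. A filter at 5 FPKM left 291 higher genes. The sum of the loci of a gene gave 213 higher and 191 lower genes, 1 higher member and 3 higher list genes, and the highest locus 1 higher member. With all loci whatever their bounds, 290 genes, 1 member and 4 list genes were higher and 7 list genes lower, and Cd36 turned to 6.48. Quantile normalization turned Jak2 to -0.021. The cause of these changes was not tested. Igfals, C6, Cyp2c39, Cyp2a5, Rxra and Elovl6 passed the adjusted threshold without KO replicate 1, and Cyp2c39 also without KO replicate 2 and on the deposited scale.

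The replicate numbers are not shown to pair the libraries (correlation of the deviations 0.08). With the replicate block, 0 genes passed the adjusted threshold, 487 were higher and 362 lower at an unadjusted p, and 2 members were higher and 0 lower, with 8 and 11 list genes. A GC correction gave 408 higher and 484 lower genes, and with the replicate block 386 and 439. The unadjusted p of Socs2, C6, Cyp2c39, Elovl6 and Rxra was under 0.05 in all 19 alternatives run, and that of the other 16 recomputed genes under it as reported was above it in at least 1.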
